A study of Homo sapiens with 6 samples.

Results

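The Golgi matrix genes described here encode 10 proteins that shape the Golgi stack or tether vesicles to it, and among them GOLGA2 encodes GM130, the protein that anchors the kinase STK25 at the Golgi. They were chosen by name (GOLGA1, GOLGA2, GOLGA3, GOLGA4, GOLGA5, GOLGB1, GORASP1, GORASP2, USO1 and GOLPH3), with earlier results of these data known, and all 10 were among the 35793 genes of the deposited table. RNA was measured in cardiomyocytes differentiated for 15 days from WTC11, an established human induced pluripotent stem cell line. One group was unedited WTC11 (wild type), the other a WTC11 derivative carrying a homozygous STK25 knockout made with CRISPR/Cas9, and neither group received a further treatment. The cells were kept in RPMI 1640 with B27. Each group had 3 biological replicates, and since the knockout was represented by 1 line, the edit and any other difference between the lines cannot be told apart. Values are normalized counts, that is, whole numbers of reads per gene divided by 1 factor per library. Whether these whole numbers were counted or rounded from estimates is not given in the sources used here.

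The Golgi apparatus receives newly made proteins from the endoplasmic reticulum at its cis side, modifies them as they cross the stack and sorts them at its trans side. Golgins are long coiled-coil proteins that reach out from Golgi membranes and catch vesicles, and the GRASP proteins hold neighbouring cisternae together. GM130 binds STK25 and its relative STK26 at the cis side and activates them, and through this link STK25 has been studied in Golgi position and cell polarity, downstream of Reelin and of the LKB1 kinase complex.

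The libraries held 22443904 to 53224112 reads assigned to genes, a 2.37-fold range. STK25, the targeted gene, had 8874, 6774 and 8710 normalized counts in wild-type replicates 1, 2 and 3 and 3906, 3434 and 3820 in knockout replicates 1, 2 and 3. The values did not overlap, and the log2 fold change, knockout minus wild type, was -1.12 (SE 0.19; limma with Benjamini-Hochberg adjustment, adjusted p = 0.00903). Without wild-type replicate 1 its adjusted p was 0.0611, over the threshold of 0.05. On the second principal component of all 15536 genes tested, which carried 24.1% of the variance, wild-type replicate 2 (-62.7) and knockout replicate 1 (-78.4) stood apart from the other 4 libraries (16.1 to 60.0). Results are therefore also given without these 2 libraries, an alternative chosen after the data were seen. Because they were left out for standing apart, the spread that remains within genotypes, and with it the p-values, tends to be too small. Cardiomyocyte identity was checked with 12 markers, whose summed level was 1422617 to 1771185 in the wild type and 1983361 to 3598535 in the knockout. Of these 12 genes 0 were called higher and 2, PLN and NKX2-5, lower (limma), with 7 log2 fold changes above and 5 below 0 (median 0.43). At an unadjusted p under 0.05 (limma) were 8 of the 12, against 27.5% of all tested genes. The values of the genotypes did not overlap in 5 genes higher and 3 lower in the knockout, against 33.4% of all tested genes in either direction. Markers of other cell types summed to less, at 40412 to 46647 against 117922 to 151282 for 6 smooth muscle genes and 13007 to 26601 against 8520.3 to 17310.3 for 10 fibroblast and stromal genes, 1279 to 1400 against 2093 to 2893 for 8 endothelial genes (CDH5 had at most 1.11 in any library) and 1718 to 3025 against 1504 to 1666 for 10 endoderm and liver genes (FOXA2 was at 0 reads). Epicardial genes (6) summed to 237 to 326 against 568 to 852, neural genes (8) to 8245 to 10019.8 against 11664 to 20769 and pluripotency genes (8) to 1264 to 2191 against 3268 to 4836. Wild-type replicate 2 and knockout replicate 1 held the highest sums of their genotype for cardiomyocyte, neural, and endoderm and liver genes. They held the lowest for fibroblast and stromal, epicardial and pluripotency genes. For smooth muscle and endothelial genes they were not at the same end in both genotypes. A sum follows the abundant genes of its list: the fibroblast list had 4 genes called higher and 1 lower, with a median log2 fold change of 1.55, and the pluripotency list 1 called higher and 0 lower among 7 tested, with a median of -0.16. Over all tested genes 12.8% were called (5.97% higher and 6.79% lower). In the other lists the genes called higher and lower were 4 and 0 of 6 tested (smooth muscle), 1 and 0 of 5 (endothelial), 1 and 0 of 5 (epicardial), 3 and 0 of 7 (neural) and 1 and 2 of 5 (endoderm and liver). Their part in the results below was not tested, and in bulk RNA fewer cells of a type and less RNA per cell cannot be told apart.

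None of the 10 Golgi matrix genes passed the test between genotypes, where 12.8% of all tested genes did (5.97% higher and 6.79% lower in the knockout). The lowest adjusted p among them was 0.273 and the highest 0.984 (limma), and 0 of 10 had an unadjusted p under 0.05, against 27.5% of all genes. With edgeR's quasi-likelihood test, run on whole reads, the call was also 0 of 10, with 0 at an unadjusted p under 0.05 (12.0% of all genes called). DESeq2 called 0 of 10, with 1 at an unadjusted p under 0.05, GOLGA2 (adjusted p = 0.160), where 20.7% of all genes were called. In none of the 10 did the 3 values of one genotype lie apart from the 3 of the other, as they did in 33.4% of all genes. Log2 fold changes ran from -0.37 to 0.80 with 5 above and 5 below 0 (GOLGA1, GOLGA3 and GOLGA4 also had values below 0 with libraries scaled to equal totals), and their median was -0.02, where that of all tested genes was 0.01. Each gene had at least 340 reads in every library. The 95% intervals of all 10 included 0, and for 5 of them, GOLGA1, GOLGA3, GOLGA4, GOLGB1 and GORASP2, the interval lay within a 2-fold change in either direction.

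**Figure D1:**
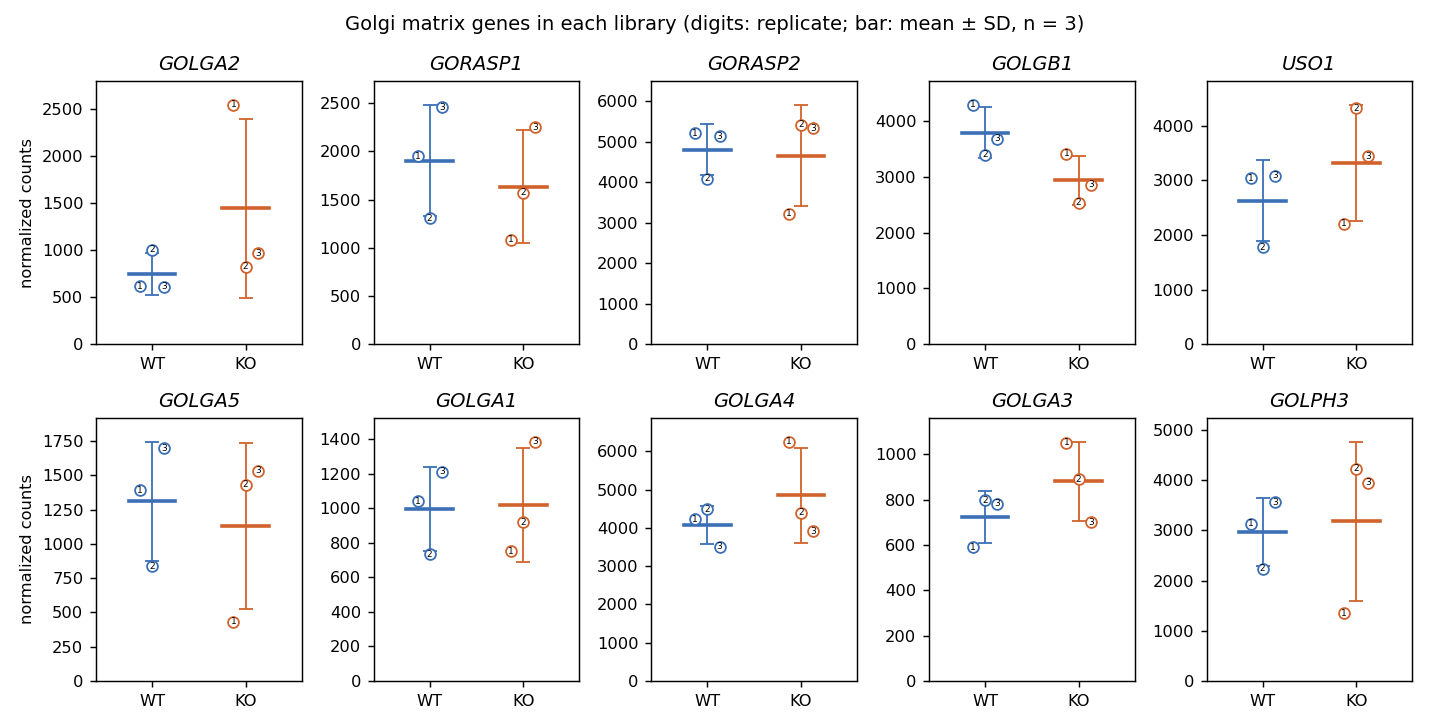
Normalized counts of the 10 Golgi matrix genes in each library, wild type (WT, blue) and STK25 knockout (KO, orange); the digit in each point is the replicate, and bars give the mean ± SD of 3 replicates on an axis that starts at 0. In every panel the genotypes overlap, and wild-type replicate 2 and knockout replicate 1 are the lowest of their genotype in 6 genes and the highest in 3.

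GOLGA2 encodes GM130, the golgin on the cis face of the stack to which STK25 binds. In GENCODE 29 (build GRCh38, as for every position given for a gene) it spans 128255829 to 128275995 of chromosome 9 (ENSG00000167110.17, minus strand). Wild-type replicates 1, 2 and 3 had 615, 1005 and 612 normalized counts, and knockout replicates 1, 2 and 3 had 2541, 820.3 and 967. Knockout replicate 1 stood far above all other libraries, and wild-type replicate 2 lay above knockout replicates 2 and 3, so the genotypes overlapped. The means were 744 ± 226 and 1443 ± 954 (SD, n = 3 each), with a log2 fold change of 0.80 (SE 0.44, 95% interval -0.22 to 1.83, limma adjusted p = 0.289). Without knockout replicate 1 the log2 fold change was 0.30, and without both libraries that stood apart it was 0.54 (SE 0.19, limma adjusted p = 0.0589).

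Duplicated golgin genes could take part of the reads of GOLGA2. The table listed 48 genes of the GOLGA6 and GOLGA8 families and GOLGA2 pseudogenes, of which 11 reached a mean of 10 normalized counts. Together the 48 held 2954 to 3176 normalized counts per wild-type library and 2099.8 to 2620 per knockout library. The most abundant of them, GOLGA8A, had 1140 ± 140 in the wild type and 963 ± 147 in the knockout (SD, n = 3 each), and GOLGA8B had 745 ± 47.8 and 539 ± 79.7. The pseudogene GOLGA2P7 had 537 ± 73.2 and 362 ± 128. The other 8 (GOLGA2P10, GOLGA2P5, GOLGA6L9, GOLGA6L4, GOLGA6L5P, GOLGA8H, GOLGA8N and GOLGA8VP) had means of at most 200.1 in either genotype, and 0 of the 11 passed the limma test (lowest adjusted p 0.201). A shift of reads between GOLGA2 and these copies cannot be read from gene totals.

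GORASP1 encodes GRASP65, which GM130 binds and which links cis cisternae to each other. It lies on chromosome 3 (ENSG00000114745.13, minus strand, 39096659 to 39108363). Its values were 1948, 1305 and 2459 normalized counts in the wild type and 1084, 1574 and 2249 in the knockout, in replicate order. The ranges overlapped, and the lowest library of each genotype was the one that stood apart. The log2 fold change was -0.23 (SE 0.33, 95% interval -1.01 to 0.54, limma adjusted p = 0.716).

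GORASP2 encodes GRASP55, the second stacking protein, found on medial cisternae. On chromosome 2 (ENSG00000115806.12, plus strand, 170928464 to 170967129), it had 5210 normalized counts in wild-type replicate 1, 4088 in replicate 2 and 5134 in replicate 3. In knockout replicates 1, 2 and 3 it had 3220, 5427 and 5340.3. Apart from the 2 libraries named above, 4 values lay within 5134 to 5427. The log2 fold change was -0.08 (SE 0.25, 95% interval -0.66 to 0.51, limma adjusted p = 0.888).

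The promoters of the STK25 anchor and its GRASP partner are shown because these binding partners differed between libraries in opposite directions. This was not particular to the pair. Over the 6 libraries Pearson's r with GOLGA2 was -0.79 for GORASP1, -0.92 for GOLGA5, -0.88 for GORASP2 and -0.83 for GOLPH3. For the rest of the members it was less negative or positive. Those of GOLGA1, GOLGA3, GOLGA5 and GORASP2 are shown because these promoters hold the letters ACGTGGC of the Golgi stress response element. The sequences are RefSeq's on GRCh38.p14, from 250 bases before to 50 after a start site, and 8 of the 10 genes matched (all but GOLGA4 and USO1). Capitals mark ACGTGGC, the cAMP response element TGACGTCA, the GC box GGGCGG and CCAAT on either strand, the E-box CACGTG being absent from the windows of these 8 genes. The search was chosen after results were known.
GOLGA2, chr9:128275958-128276257, minus strand: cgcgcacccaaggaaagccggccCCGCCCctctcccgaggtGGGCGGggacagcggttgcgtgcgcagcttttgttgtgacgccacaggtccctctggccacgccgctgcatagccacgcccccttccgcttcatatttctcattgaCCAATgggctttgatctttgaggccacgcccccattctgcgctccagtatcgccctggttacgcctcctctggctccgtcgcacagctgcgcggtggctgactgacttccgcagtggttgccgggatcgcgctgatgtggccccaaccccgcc
GORASP1, chr3:39107578-39107877, minus strand: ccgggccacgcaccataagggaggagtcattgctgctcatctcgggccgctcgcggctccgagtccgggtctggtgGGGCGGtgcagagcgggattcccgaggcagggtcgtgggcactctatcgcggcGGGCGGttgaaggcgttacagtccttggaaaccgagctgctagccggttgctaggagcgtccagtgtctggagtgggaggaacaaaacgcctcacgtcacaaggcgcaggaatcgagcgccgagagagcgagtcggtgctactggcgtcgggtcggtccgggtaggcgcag
GORASP2, chr2:170929003-170929302, plus strand: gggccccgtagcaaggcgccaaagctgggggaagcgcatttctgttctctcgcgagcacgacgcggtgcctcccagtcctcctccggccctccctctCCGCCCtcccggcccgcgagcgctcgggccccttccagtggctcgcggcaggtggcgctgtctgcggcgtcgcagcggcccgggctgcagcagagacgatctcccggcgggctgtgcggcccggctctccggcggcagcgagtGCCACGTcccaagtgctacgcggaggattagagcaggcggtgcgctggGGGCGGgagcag
GOLGA1, chr9:124941034-124941333, minus strand: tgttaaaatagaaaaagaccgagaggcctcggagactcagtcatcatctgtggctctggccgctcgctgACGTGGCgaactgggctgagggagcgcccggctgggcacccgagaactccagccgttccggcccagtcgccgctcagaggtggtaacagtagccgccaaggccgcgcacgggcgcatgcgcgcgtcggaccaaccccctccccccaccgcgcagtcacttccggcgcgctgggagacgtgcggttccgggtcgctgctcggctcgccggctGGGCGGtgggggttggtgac
GOLGA3, chr12:132828820-132829119, minus strand: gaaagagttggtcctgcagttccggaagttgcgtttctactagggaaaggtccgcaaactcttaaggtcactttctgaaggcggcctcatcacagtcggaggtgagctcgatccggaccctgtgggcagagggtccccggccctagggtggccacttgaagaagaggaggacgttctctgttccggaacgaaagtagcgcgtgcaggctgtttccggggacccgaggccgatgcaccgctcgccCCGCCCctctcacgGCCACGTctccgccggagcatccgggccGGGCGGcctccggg
GOLGA5, chr14:92794055-92794354, plus strand: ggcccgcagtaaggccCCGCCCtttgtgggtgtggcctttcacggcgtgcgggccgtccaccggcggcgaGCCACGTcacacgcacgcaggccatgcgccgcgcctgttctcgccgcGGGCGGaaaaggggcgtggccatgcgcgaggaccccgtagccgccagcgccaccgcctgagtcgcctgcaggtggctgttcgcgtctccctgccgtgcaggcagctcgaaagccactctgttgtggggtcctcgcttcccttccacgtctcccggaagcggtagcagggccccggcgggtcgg

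ACGTGGC was found in 4 of these 8 genes, at 181 bases before the start site in GOLGA1, at base 9 after it in one of 3 GOLGA3 windows, at 180 bases before it in GOLGA5 and at 10 before it in GORASP2. Of all 27305 genes with such windows 3.95% held it. GGGCGG was present in 6 of the 8 genes (48.3% of all genes), CCAAT in 3 (39.7%), TGACGTCA in 1, GOLPH3 (2.25%), and CACGTG in 0 (8.77%). GGGCGG and ACGTGGC did not overlap in these windows. Letters that match a motif describe the window and show no binding.

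The vesicle tethers of the cis and medial Golgi showed differences of opposite sign that did not pass the test. USO1 encodes p115, which catches vesicles arriving from the endoplasmic reticulum and binds both GM130 and giantin. On chromosome 4 (ENSG00000138768.14, plus strand, 75724593 to 75814286), its values were 3031, 1773 and 3078 normalized counts in the wild type and 2204, 4311 and 3437 in the knockout. Knockout replicates 2 and 3 were above every wild-type library, while knockout replicate 1 was below wild-type replicates 1 and 3. The log2 fold change was 0.33 (SE 0.32, 95% interval -0.42 to 1.07, limma adjusted p = 0.571).

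GOLGB1 encodes giantin, a golgin with a membrane anchor that holds COPI vesicles, the carriers of backward traffic. On chromosome 3 (ENSG00000173230.15, minus strand, 121663199 to 121749767), it had 4284, 3389 and 3681 normalized counts in the wild type and 3410.4, 2537 and 2855 in the knockout. The genotypes overlapped by the small margin between wild-type replicate 2 and knockout replicate 1. The means were 3785 ± 456 and 2934 ± 442 (SD, n = 3 each). The log2 fold change was -0.37 (SE 0.20, 95% interval -0.83 to 0.09, limma adjusted p = 0.273), and the adjusted p was the lowest among the 10 genes. Without both of those libraries GOLGB1 was the only one of the 10 past the threshold, with a log2 fold change of -0.56 (SE 0.14, limma adjusted p = 0.0142), in a fit that called 30.6% of 15381 genes. They held its lowest wild-type and its highest knockout value, so leaving both out had to widen the difference.

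GOLGA5 encodes another membrane-anchored golgin, which acts in traffic within the stack. On chromosome 14 (ENSG00000066455.12, plus strand, 92794231 to 92839963), it had 1391, 837 and 1698 normalized counts in the wild type and 432, 1430.0 and 1531 in the knockout. Knockout replicate 1 was the lowest of the 6 libraries and wild-type replicate 2 the next lowest. The log2 fold change was -0.35 (SE 0.51, 95% interval -1.53 to 0.82, limma adjusted p = 0.718), and without knockout replicate 1 it was 0.24.

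The golgins of the trans side, GOLGA1 and GOLGA4, carry a GRIP domain that the GTPase ARL1 recruits, and they catch carriers coming from endosomes. GOLGA1 (chromosome 9, ENSG00000136935.13, minus strand, 124878357 to 124948492) had 1041, 735 and 1213 normalized counts in the wild type and 749.96, 919.5 and 1386 in the knockout. The ranges covered each other, with a log2 fold change of 0.01 (SE 0.30, 95% interval -0.68 to 0.71, limma adjusted p = 0.984). GOLGA4 (chromosome 3, ENSG00000144674.16, plus strand, 37243177 to 37366751) had 4222, 4482 and 3507 in the wild type and 6253, 4395 and 3906 in the knockout. Knockout replicate 1 lay above the other 5 libraries, which overlapped, and the log2 fold change was 0.23 (SE 0.23, 95% interval -0.30 to 0.76, limma adjusted p = 0.577).

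GOLGA3 and GOLPH3 differ from the tethers in role. GOLGA3 encodes a golgin that dynein-driven Golgi positioning depends on. At chromosome 12 (ENSG00000090615.14, minus strand, 132768909 to 132828858), its values were 589, 797 and 782 normalized counts in the wild type and 1051, 891 and 700.3 in the knockout. Knockout replicates 1 and 2 were above all wild-type libraries and knockout replicate 3 was not, with a log2 fold change of 0.28 (SE 0.24, 95% interval -0.29 to 0.84, limma adjusted p = 0.520). GOLPH3 encodes a lipid-binding protein that ties Golgi membranes to the actin motor MYO18A and retains glycosylation enzymes. At chromosome 5 (ENSG00000113384.13, minus strand, 32124704 to 32174350), it had 3133, 2230.2 and 3557 in the wild type and 1347, 4231 and 3950.4 in the knockout. Knockout replicate 1 was the lowest library and the other 2 knockout libraries were the highest, so the log2 fold change of -0.05 (SE 0.44, 95% interval -1.07 to 0.97, limma adjusted p = 0.963) was a mean over unlike values, and without knockout replicate 1 it was 0.49.

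**Figure D2:**
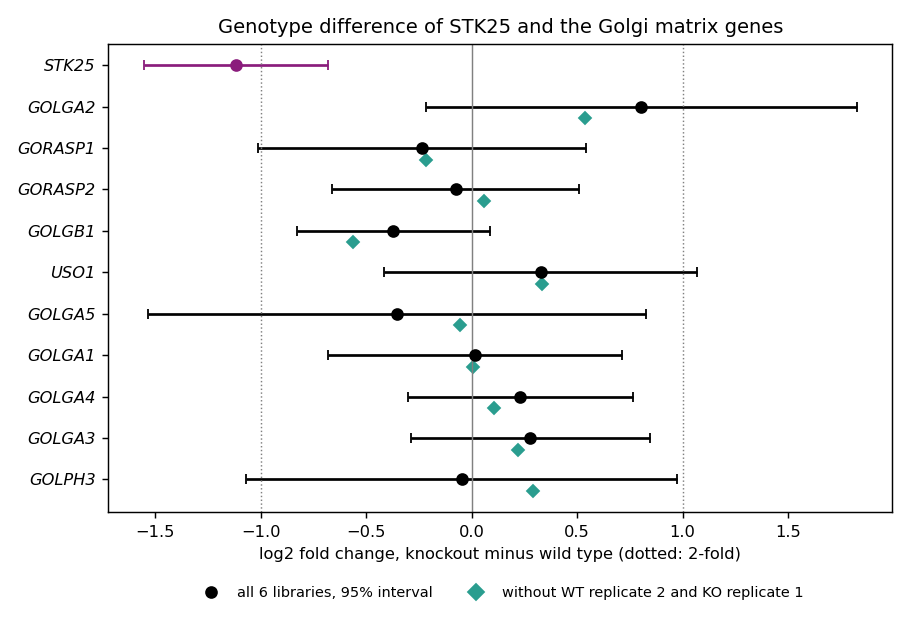
Log2 fold changes, knockout minus wild type, of STK25 (purple) and the 10 Golgi matrix genes (black) with limma's 95% intervals from all 6 libraries, and the values without wild-type replicate 2 and knockout replicate 1 (green diamonds); dotted lines mark a 2-fold change. The interval of STK25 lies below 0 and those of the 10 Golgi genes include 0.

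Without wild-type replicate 2 and knockout replicate 1, the values of the genotypes did not overlap in 5 of the 10 genes, against 65.9% of all genes in that fit. GOLGA2, GORASP2, USO1 and GOLPH3 were higher in the knockout and GOLGB1 was lower. The limma adjusted p-values of the first 4 were 0.0589, 0.764, 0.117 and 0.133, and 3 of the 10 genes (GOLGA2, USO1 and GOLGB1) had an unadjusted p under 0.05, against 41.6% of all genes in that fit. With 2 libraries per genotype, these values rest on 4 libraries, and their p-values tend to be too small because of how the libraries were chosen.

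For most members libraries of the same genotype varied more than the genotypes differed: only in GOLGA2, GOLGA3 and GOLGB1 was the within-genotype SD on the log2 scale smaller than the size of the log2 fold change. These SDs ran from 0.19 (GOLGB1) to 0.81 (GOLGA5), against a median of 0.43 over all tested genes, and 5 of the 10 lay above that median. In wild-type replicate 2 GOLGA2 was 1.64-fold higher than in the mean (log2 scale) of the other 2 wild-type libraries, and in knockout replicate 1 it was 2.85-fold higher than in the other 2 knockout libraries. GOLGA3 and GOLGA4 were also highest in these 2 libraries, by 1.17-fold and 1.33-fold for GOLGA3 and by 1.16-fold and 1.51-fold for GOLGA4.

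The other genes with a common direction were lower in both. GORASP1 was 1.68-fold lower in wild-type replicate 2 and 1.73-fold lower in knockout replicate 1 than in the other libraries of its genotype, and USO1 1.72-fold and 1.75-fold lower. GOLGA5 was 1.84-fold and 3.42-fold lower, GOLPH3 1.497-fold and 3.03-fold, GOLGA1 1.53-fold and 1.505-fold and GORASP2 1.27-fold and 1.67-fold. In all, 6 of the 10 genes had their lowest value of each genotype in these 2 libraries (30.4% of all tested genes did), 3 had their highest (29.5%), and GOLGB1 did neither. Read against the mean of the other libraries of the genotype, the counts were the same 6 below (38.0% of all genes) and 3 above (37.2%). Of 128 genes in other Golgi lists 70 were lowest and 24 highest in both of these libraries. The lists ranged from the COG complex, which tethers vesicles that recycle Golgi enzymes, with 7 lowest and 0 highest of 8, to the Golgi links to microtubules and actin, with 2 lowest and 5 highest of 10.

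Over the 15174 tested genes with a known transcript, the shift of wild-type replicate 2 and that of knockout replicate 1 correlated with log2 transcript length at Pearson's r = -0.32 and r = -0.19, and with GC content at r = 0.10 and r = 0.11, as descriptions across genes, which are not independent. After each library's trend over length and GC content was removed, an alternative also added after the data were seen, 0 of the 10 passed, where 19.3% of 15174 genes did, and 14 of the 128 genes of the other Golgi lists passed. Between the 2 shifts r was 0.45. Several marker sums were also highest or lowest in both of these libraries, as given above. The source of the shifts was not tested.

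**Figure D3:**
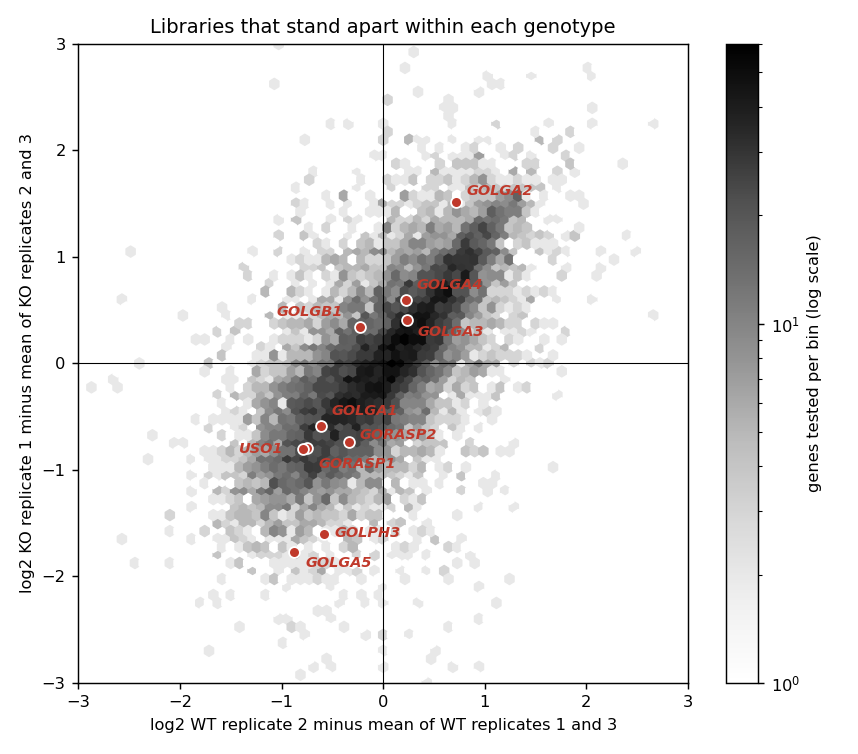
Log2 difference of wild-type replicate 2 from the mean of wild-type replicates 1 and 3 (horizontal) and of knockout replicate 1 from the mean of knockout replicates 2 and 3 (vertical), for all 15536 tested genes (grey bins, darker for more genes on a log scale) and the 10 Golgi matrix genes (red). GOLGA2 sits at 0.71 and 1.51, GOLGA5 at -0.88 and -1.77.

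The ratio of 2 genes within a library does not depend on how libraries are scaled, so 5 pairs of binding partners or relatives were compared by exact two-sided permutation tests of the 3 against 3 values, which cannot go below p = 0.1. The log2 ratio of GOLGA2 to GORASP1 was -1.66, -0.38 and -2.01 in wild-type replicates 1, 2 and 3 and 1.23, -0.94 and -1.22 in the knockout. GOLGA2 thus exceeded GORASP1 in normalized counts in knockout replicate 1 alone. The means differed by 1.04 (exact p = 0.4), or by 0.27 without knockout replicate 1. GOLGB1 to USO1 had a mean log2 ratio of 0.56 ± 0.34 in the wild type and -0.13 ± 0.71 in the knockout (SD, n = 3 each), a difference of -0.70 (exact p = 0.3).

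The log2 ratio of GORASP2 to GORASP1 ran from 1.06 to 1.79 over the 6 libraries. Its mean was 1.38 ± 0.29 in the wild type and 1.53 ± 0.27 in the knockout (SD, n = 3 each), a difference of 0.16 (exact p = 0.6). The differences were 0.48 for GOLGA2 to USO1 (exact p = 0.7) and -0.22 for GOLGA1 to GOLGA4 (exact p = 0.8). All 5 adjusted p-values over the pairs were 0.8.

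Levels of different genes were compared per kilobase of the longest protein-coding GENCODE 29 transcript, on the scale of normalized counts per kb. GORASP2 was the most abundant in the wild type with 1516 ± 198 (SD, n = 3), followed by GOLPH3 with 1093 ± 249. USO1 (635 ± 179), GOLGA4 (524 ± 65.0), GORASP1 (512 ± 155), GOLGA5 (441 ± 147) and GOLGB1 (338 ± 40.7) formed a middle range in which the values of each neighbouring pair overlapped. GOLGA1 (207 ± 50.3) and GOLGA2 (175 ± 53.1) came next, and GOLGA3 (78.1 ± 12.5) was the least abundant.

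The values did not overlap between GOLPH3 and USO1, between GOLGB1 and GOLGA1, or between GOLGA2 and GOLGA3, while GORASP2 overlapped GOLPH3 and GOLGA1 overlapped GOLGA2. In the knockout the order of the means was the same except that GOLGA2 (339 ± 224) moved from rank 9 to rank 7, above GOLGB1 (262 ± 39.5) and GOLGA1 (212 ± 68.5), through the value of 596 in knockout replicate 1. Transcripts shorter than the longest one would raise these values, and the isoforms present were not measured by gene totals.

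**Figure D4:**
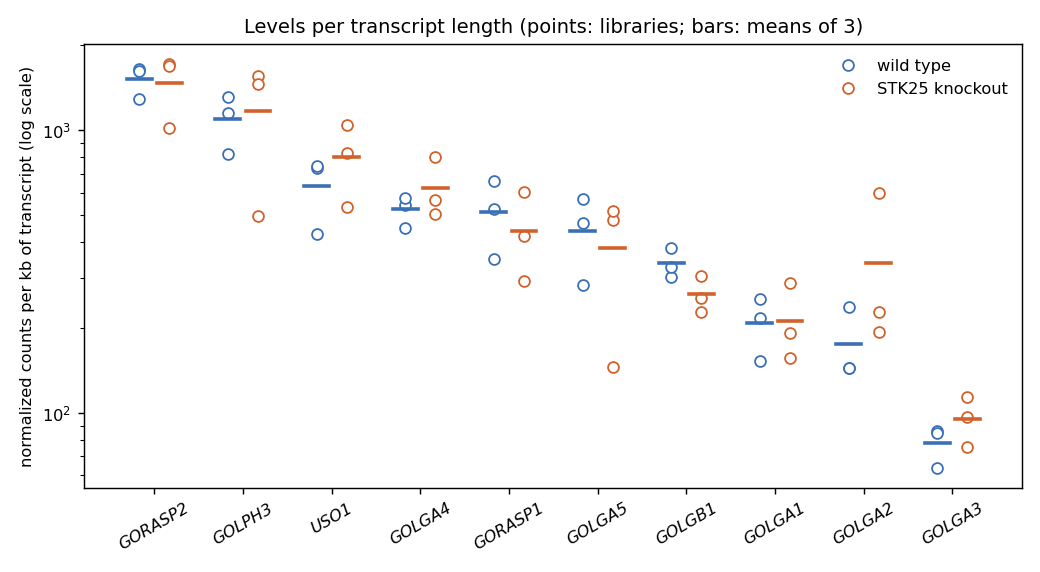
Normalized counts per kb of transcript (log axis) of the 10 Golgi matrix genes in wild-type (blue) and knockout (orange) libraries, in the order of the wild-type means, which run from 1516 for GORASP2 to 78.1 for GOLGA3; points are libraries and bars are means of the 3 libraries. GOLGA2 has 1 knockout library at 596 and the other 2 at 193 and 227.

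Genes whose pattern was most like that of GOLGA2 were sought among the 13036 genes with a mean of at least 50, by Pearson's r of log2 values over the 6 libraries. The 5 highest were CMTM5 (r = 0.997), MTX1 (0.997), C1orf50 (0.997), MAFK (0.996) and TPTEP2 (0.994). Their values in knockout replicate 1, where GOLGA2 was highest, were 2481, 2527, 2868, 1680.4 and 873 normalized counts in that order. Since the genes were chosen for this likeness, their pattern over the libraries is a description.

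The other genes of the organelle were read from 10 lists with 128 genes in all (ARF4 is in 2 of them). Of these 10 passed the test (7.81%, against 12.8% of all genes), 7 higher and 3 lower in the knockout, and their median log2 fold change was 0.03 against 0.01 for all genes. No gene of the COG complex (8 genes, median 0.08), of the COPII coat and its exit sites (14, median 0.03), of the Rab and Arf GTPases and their regulators (20, median 0.01) or of the Golgi links to microtubules and actin (10, median 0.07) passed. At an unadjusted p under 0.05 (limma, 27.5% of all genes) these lists had 0, 0, 0 and 3 genes. edgeR called 10 of the 128 (12.0% of all genes) and DESeq2 15 (20.7% of all genes). With the 2 libraries that stood apart left out, 34 of the 128 (26.6%, against 30.6% of all genes) passed, 21 higher and 13 lower, and these included all 10.

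In the SNARE fusion machinery, which merges vesicles with Golgi membranes, 3 of 15 genes were called higher and 0 lower (20.0%, against 12.8% of all genes). The list median was -0.11, with 6 log2 fold changes above and 9 below 0. At an unadjusted p under 0.05 (limma) were 4 of the 15, against 27.5% of all genes. STX10, a trans-Golgi syntaxin, had 1994, 2751 and 1998 normalized counts in the wild type and 6826, 4035 and 5068 in the knockout (log2 fold change 1.22, SE 0.25, limma adjusted p = 0.0187). The lowest knockout value was above the highest wild-type value. NAPA, the adaptor that lets NSF take SNARE complexes apart, went from 3911 ± 212 to 6636 ± 674 (SD, n = 3 each; limma adjusted p = 0.0279), and YKT6, a lipid-anchored SNARE, from 2559 ± 386 to 4391 ± 226 (limma adjusted p = 0.0315).

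Of 12 other golgins and scaffold proteins 1 rose (8.33%, against 12.8% of all genes called in either direction), with a list median of 0.12. GORAB, a trans-Golgi scaffold protein, had 361, 359.5 and 449.7 normalized counts in the wild type and 643, 943 and 1013 in the knockout, without overlap (log2 fold change 1.13, SE 0.26, limma adjusted p = 0.0268). Of the 9 COPI coat genes 1 fell (11.1%, against the same 12.8%), with a list median of 0.12. COPZ2, one of 2 genes for the coat's zeta subunit, went from 366 ± 86.3 to 101 ± 40.3 (SD, n = 3 each), with -1.92 on the log2 scale (limma adjusted p = 0.0191), while COPZ1 had a log2 fold change of 0.12 (limma adjusted p = 0.758).

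Among 20 Golgi enzymes and transporters 1 rose and 1 fell (median -0.22). At an unadjusted p under 0.05 (limma) were 9 of the 20, against 27.5% of all genes. MAN1C1, a mannosidase that trims N-glycans, fell from 1148 ± 345 to 366 ± 47.3 (SD, n = 3 each), with a log2 difference of -1.60 (SE 0.29, limma adjusted p = 0.0116). FUT8, which adds the core fucose to N-glycans, rose from 264 ± 7.19 to 534 ± 119 (log2 fold change 0.99, SE 0.25, limma adjusted p = 0.0403). In the list of Golgi stress response genes, 1 of 8 rose and 1 fell (median -0.18). MLX, a transcription factor of the MAX-like network, rose from 2073 ± 30.1 to 3614 ± 142 (limma adjusted p = 0.0187), and CREB3L2, a membrane-bound transcription factor, fell from 914 ± 79.2 to 456 ± 126 (limma adjusted p = 0.0376).

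The kinases that share GM130 and the Reelin and LKB1 genes tied to STK25 in polarity had 1 of 13 genes past the test. That was 7.69%, against 12.8% of all genes, and the list median was -0.0017. No other gene of the list, STK26 included, had an unadjusted p under 0.05 (limma). VLDLR, a Reelin receptor, rose from 1835, 1449 and 2368 normalized counts to 5623, 8282 and 6635, without overlap (log2 fold change 1.87, SE 0.25, limma adjusted p = 0.00314). The receptor LRP8 had a log2 fold change of 0.46 (SE 0.52), the adaptor DAB1 of -0.0017 (SE 0.30) and RELN, the ligand, of -0.18 (SE 0.52), with limma adjusted p-values of 0.631, 0.998 and 0.870. The LKB1 gene STK11 (-0.15, SE 0.22) and its partner STRADA (-0.45, SE 0.21) had adjusted p-values of 0.725 and 0.220. Leaving out each library in turn, VLDLR stayed past the threshold in all 6 fits (adjusted p up to 0.0221), STX10 and MAN1C1 were over it in 3 of 6, COPZ2, MLX and NAPA in 4 of 6, and GORAB, YKT6, FUT8 and CREB3L2 in 5 of 6. The highest adjusted p in these fits was 0.142, for NAPA. With libraries scaled to equal totals GORAB, YKT6, NAPA, FUT8 and MLX were over the threshold (limma adjusted p from 0.106 to 0.201).

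**Figure D5:**
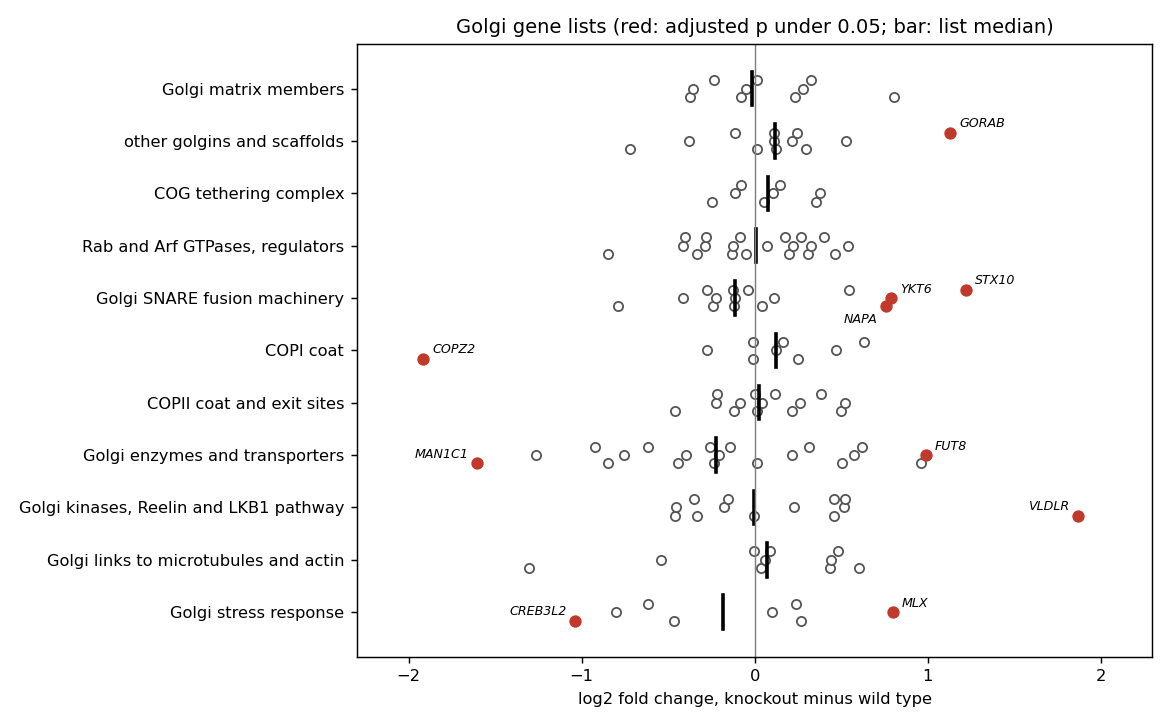
Log2 fold changes, knockout minus wild type, of every gene in the Golgi matrix set and 10 other Golgi lists (points; red and named where the limma adjusted p is under 0.05) with list medians (black bars). Red points number 0 in the Golgi matrix set and 10 in the other lists, from COPZ2 at -1.92 to VLDLR at 1.87.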

How the data were processed

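The authors deposited 1 table of normalized counts for 6 libraries of total RNA from cardiomyocytes, 3 of each genotype. The cDNA kit was Clontech Ultra Low v4 and the library kit NexteraXT, per the labels' protocols. The submitters' processing notes name bcl2fastq 2.19, kallisto 0.44.0, DESeq2 1.28.1 and GRCh38, with no role or order; annotation and use of strand are not given in the sources used here. The deposited signal was tested for a common step per library: 100% of values divided by it to whole reads (tolerance 0.001 reads). Columns were matched by the names in the labels, with 0 unused.

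limma 3.58.1 (R 4.3.3) was run on log2(value + 1), which understates changes of low genes of genes whose mean reached 10 (lmFit, eBayes with trend, 6 libraries, no covariate), with Benjamini-Hochberg adjustment over 15536 genes and a threshold of 0.05. All p-values are two-sided. edgeR 4.0.16 and DESeq2 1.42.0 on the recovered reads, other pseudocounts (0.1, 10), filters, scalings, variance models, a replicate block and leaving out each library were alternatives. A correction for transcript length and GC content and a fit without wild-type replicate 2 and knockout replicate 1 were added with the data in view. The main limma fit, edgeR and DESeq2 were first run on simulated counts, which held no shift shared by wild-type replicate 2 and knockout replicate 1. Criteria on wrong signs, recovery of large changes and false calls were set for limma only, and edgeR and DESeq2 had none to meet. The other alternatives were not run in this way. Replicate libraries differed beyond counting noise (chi-square over its degrees of freedom at least 18.9). The labels mention no molecular identifiers, so depth covers counting error only, and p-values measure the spread between replicates of 1 line per genotype.

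The genes named are STK25, the 10 members, list genes past the threshold (at most 6 per list), the 5 genes most like GOLGA2, and golgin copies with a mean of at least 10; genes given beside them for comparison (COPZ1, LRP8, DAB1, RELN, STK11 and STRADA) were chosen after their values were seen. The members and lists were chosen with earlier results of these data known. Positions, transcript lengths and GC content came from GENCODE 29 (GRCh38) by symbol, for 97.7% of tested genes. Figures were drawn with matplotlib 3.10.9.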

Additional observations from a re-analysis of the deposited data

How the results depend on the processing

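The count of 0 called Golgi matrix genes held under 13 of the 14 alternatives that keep or replace the whole design and, with each of the 6 libraries omitted in turn, stayed 0 (range 0 to 0). With both libraries that stood apart left out it was 1, GOLGB1, whose difference this choice had to widen. The log2 fold change of STK25 lay between -1.24 and -1.05 with 1 library omitted and had an adjusted p of 0.0684 with the replicate number as a block. The count over all genes was 4706 without both libraries, 3210 with DESeq2 and 792 to 2192 with 1 library left out (792 when this was wild-type replicate 1 and 911 when it was replicate 3; among knockout libraries 963 when it was replicate 3 and 1270 when it was replicate 2). The count over the other Golgi lists was 34 without both libraries, 5 with equal totals and 1 to 12 with 1 library left out (in the wild type 1 when it was replicate 1 or 3 and 6 when it was replicate 2, in the knockout 4 when it was replicate 2 and 1 when it was replicate 3). CREB3L2 was also over the threshold with equal upper quartiles (adjusted p = 0.0509), quantile normalization (0.0543) and eBayes without trend (0.0592), YKT6 (0.0666) and NAPA (0.0620) without trend, and FUT8 with no filter (0.0575). Equal totals moved the median of all genes from 0.01 to -0.28 and that of the members from -0.02 to -0.30, and changed the sign of GOLGA1 (-0.27), GOLGA3 (-0.0028) and GOLGA4 (-0.0504), which lie above the shifted median; called genes split there into 546 higher and 1466 lower, against 927 and 1055. GOLPH3 turned positive with edgeR (0.0855), with DESeq2 (0.0941) and without both libraries (0.29), as GORASP2 did there (0.0579). Leaving out 1 library, log2 fold changes ran from -0.23 to 0.21 for GOLGA1, -0.67 to 0.24 for GOLGA5, -0.50 to 0.0304 for GORASP1, -0.21 to 0.17 for GORASP2 and -0.34 to 0.49 for GOLPH3, and differences of log2 ratios from -0.29 to 1.00 for GOLGA2 to USO1, -0.60 to 0.18 for GOLGA1 to GOLGA4, 0.27 to 1.52 for GOLGA2 to GORASP1, 0.00 to 0.30 for GORASP2 to GORASP1 and -1.08 to -0.38 for GOLGB1 to USO1. The cause of these changes was not tested.

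Libraries of equal replicate number did not shift alike as a rule: deviations from the genotype means correlated at -0.23, -0.40 and 0.17 for equal numbers. Deviations within a genotype sum to 0, so these correlations depend on each other. They cannot show whether libraries of equal number were prepared together, which the labels do not state. For unequal numbers the correlations ran from -0.35 (wild-type replicate 3 and knockout replicate 1) to 0.45 (wild-type replicate 2 and knockout replicate 1). With the replicate number as a block, STK25 had a log2 fold change of -1.12, 798 genes, 0 Golgi matrix genes and 1 gene of the other Golgi lists passed.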
